A study of Mus musculus with 9 samples.

Results

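The nuclei described here carry genes of smooth muscle cells and pericytes, the mural cells of the vessel wall, and come from mouse epididymal white adipose tissue profiled by single-nucleus RNA-seq. They are called mural nuclei, although many in C and HC also carry genes that are rare in the other libraries and whose source was not tested. They were chosen by their own counts: a nucleus with 500 to 3000 detected genes and at most 40000 unique molecular identifiers (UMIs, each standing for 1 captured RNA molecule) was taken when at least 3 of 8 mural genes (Myh11, Acta2, Tagln, Notch3, Rgs5, Abcc9, Gucy1a1, Kcnj8) and at most 1 of 7 genes of other cells (Pdgfra, Adgre1, Mctp1, Muc16, Plin4, Cdh5, Ptprb) had a UMI. This gave 837 nuclei of 76356 within the limits, or 1.10%. The tissue came from male C57BL/6J mice, and each of the 9 libraries pooled nuclei of 5 mice, so that a diet group is 1 library and the mice within it cannot be separated. C, CC and CCC were on chow throughout and were 18, 26 and 39 weeks old. H had 12 weeks of high-fat diet (HFD) and was 18 weeks old, and HH had 25 weeks and was 31 weeks old. HC and HHC were returned to chow for 8 weeks of weight loss (WL) after 12 and 25 weeks of HFD, and were 26 and 39 weeks old. CCH was kept on chow for 26 weeks before 4 weeks of HFD, and HCH had 12 weeks of HFD, 8 weeks of chow and again 4 weeks of HFD; both were 30 weeks old.

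Mural cells wrap the endothelial tube. Smooth muscle cells encircle arterioles and larger vessels and set their diameter by actin and smooth muscle myosin contraction, which follows calcium entry and phosphorylation of the myosin light chain and is opposed by cyclic GMP formed when nitric oxide binds guanylate cyclase. Pericytes sit on capillaries within the basement membrane, are recruited by platelet-derived growth factor acting on Pdgfrb, keep their identity in part through Notch3, and in adipose tissue have also been discussed as relatives of fat cell precursors.

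The 8 mural genes chose these nuclei, so their levels are given only as a description, as counts per 1000000 summed UMIs of the nuclei concerned (CPM). Myh11, the smooth muscle myosin heavy chain, was at 4564 CPM (C), 353 (CC) and 530 (CCC) on chow, at 848 (H), 1158 (HH), 1523 (CCH) and 1038 (HCH) on HFD, and at 6035 (HC) and 1504 (HHC) after WL. C and HC stood above the other 7 libraries in Myh11, and the remaining nuclei of the same libraries held 4.15 to 334 CPM. Notch3, the mural Notch receptor, ran from 334 CPM in HC to 1470 in HCH against at most 67.1 CPM in other nuclei. Rgs5, a regulator of G-protein signalling typical of pericytes, ran from 143 CPM in HC to 1045 in CCC, and its level in other nuclei reached 165. Abcc9, the regulatory subunit of the vascular ATP-sensitive potassium channel, was lowest in HC at 239 CPM and highest in HCH at 1562. Gucy1a1, a subunit of the nitric oxide receptor guanylate cyclase, ran from 103 CPM in HC to 664 in HCH. Mesothelial nuclei, which cover the fat pad and were picked by the same kind of rule, held 52.6 to 120 CPM of Gucy1a1, and in HC their 120 CPM exceeded the 103 CPM of the mural nuclei.

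**Figure D1:**
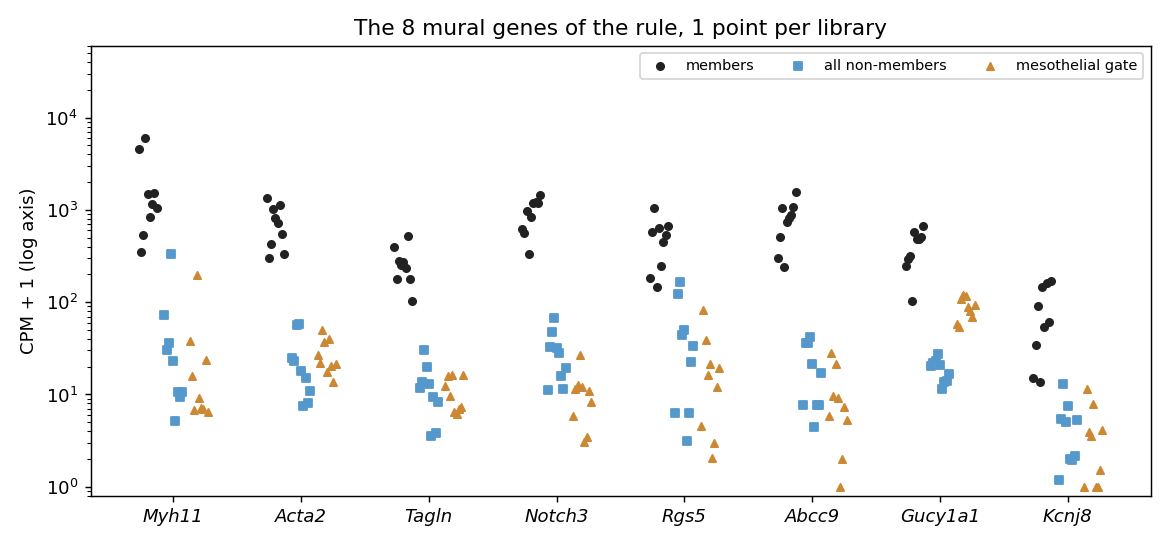
CPM + 1 on a log axis for the 8 mural genes of the rule, 1 point per library, in the chosen mural nuclei (black circles), in all other nuclei within the limits (blue squares) and in nuclei of the mesothelial gate (brown triangles). The mural nuclei lie above the other nuclei of the same library for all 8 genes, by at least 3.13 times for Kcnj8 and 3.33 times for Rgs5, and the Gucy1a1 values overlap the mesothelial range.

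Genes that the rule did not use are given as a description too, since they were read in the nuclei the rule picked, and the genes named next are among the 15 with the highest ratios. The ratio of CPM in mural nuclei to CPM in other nuclei, taken at its lowest over the 9 libraries, was 18.8 for Casq2, the calcium buffer of the sarcoplasmic reticulum, 15.1 for P2rx1, an ATP-gated cation channel, 10.7 for the cation channel Trpc6 and 9.39 for Olfr78, an olfactory receptor known from vascular smooth muscle. The lowest ratios of Casq2 and Olfr78 rest on 1 UMI each, in CC and HC. Myocd, the coactivator that drives smooth muscle genes through serum response factor, had a lowest ratio of 8.41, and Lmod1, an actin filament nucleator, 8.27. The summed level of 17 smooth muscle markers was 2345 to 12444 CPM against 430 to 2346 CPM in other nuclei. It was close to that of other nuclei in CC (2345 against 2312 CPM) and CCC (2583 against 2346 CPM). The 27 contractile genes summed to 6370 CPM in CC, against 6103 CPM in its other nuclei, and 15 pericyte markers to 1857 to 4598 CPM over the libraries against 248 to 692 CPM. Schwann cell genes (8) summed to 132 to 345 CPM in mural nuclei and 209 to 458 CPM in other nuclei, with Sox10 at 0 in the mural nuclei of all 9 libraries, and the mural sum was the higher in H alone (286 against 209 CPM). Epididymal epithelial genes (12) summed to 19.6 to 176 CPM against 27.6 to 203 CPM, with Lcn5, Lcn8 and Rnase9 at 0 in mural nuclei, and the mural sum was the higher in HH (46.3 against 27.6 CPM) and HCH (170 against 160 CPM). Endothelial markers summed to 191 to 2001 CPM, against 435 to 1191 CPM in other nuclei. The mural sum was the higher in CCC (2001 against 827 CPM) and HH (741 against 535 CPM). Of the 837 nuclei, 40 also met the rule of the endothelial gate, 21 of them in CCC and 11 in HC.

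The rule is a threshold on sparse counts: 408 nuclei held exactly 3 mural genes, 331 held none of the 7 genes of other cells, 1245 nuclei failed with 2 mural genes and 385 with 2 genes of other cells. Those with none of the 7 were 109 of 194 (C), 6 of 40 (CC) and 19 of 79 (CCC) on chow. They were 22 of 37 (H), 36 of 61 (HH), 26 of 54 (CCH) and 30 of 81 (HCH) on HFD, and 67 of 235 (HC) and 16 of 56 (HHC) after WL. The chosen nuclei held 37 (H) to 235 (HC) per library with summed counts of 94298 (H) to 871090 (HC) UMIs and a median of 1597 (CCC) to 3540 (HC) UMIs per nucleus, and no member shared its barcode with a member of another library. Mural genes were also detected outside these nuclei, to a degree that differed between libraries, and free RNA and doublets were not told apart as the source. Among nuclei with 2 or more genes of other cells, the share that nonetheless held 3 mural genes was 4.50% in CC, 11.2% in CCC, 8.93% in HC and 2.56% in HHC, which carry the label prefix S019, against 0.169% in H, 0.325% in HH, 0.573% in CCH, 0.951% in HCH and 1.28% in C, which carry S075. All 4 libraries on HFD at harvest have the prefix S075, where C is the only chow library, and both WL libraries have S019.

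Mural nuclei made up 1.67% of nuclei within the limits in C (exact 95% binomial interval 1.44 to 1.91), 0.965% in CC (0.690 to 1.31) and 1.37% in CCC (1.09 to 1.70). On HFD at harvest they made up 0.377% in H (0.265 to 0.519), 0.458% in HH (0.350 to 0.587), 0.741% in CCH (0.557 to 0.966) and 0.821% in HCH (0.653 to 1.02). The 4 HFD libraries all lay below the 3 chow libraries, at 0.599% ± 0.215 (SD, n = 4) against 1.33% ± 0.352 (SD, n = 3). The difference of -0.734 percentage points had an exact two-sided permutation p of 0.0571, the smallest that 35 orders of these libraries can give. The groups overlapped when at least 4 mural genes were asked for, with a difference of -0.2002 percentage points (exact permutation p = 0.343), and when no gene of other cells was allowed, with -0.181 (exact permutation p = 0.686). After WL the share was 4.36% in HC (3.83 to 4.94) and 0.615% in HHC (0.465 to 0.798), the highest value of all and one among the HFD values. With every nucleus thinned to 1000 UMIs, which left out 32 (CC) to 1676 (C) shallower nuclei per library, the share was 1.12% (C), 0.584% (CC) and 1.42% (CCC) on chow against 0.234% (H), 0.367% (HH), 0.491% (CCH) and 0.583% (HCH) on HFD, so that HCH reached the level of CC. Intervals cover counting error only, and a share of nuclei depends on the numbers of all other nuclei in the tissue.

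The groups no longer separated when only nuclei that leaned to the pericyte side were counted. Each mural nucleus was set on the smooth muscle side when more of Myh11, Acta2 and Tagln than of Rgs5, Abcc9 and Kcnj8 were detected, and on the pericyte side when fewer were, which gave 457 and 250 nuclei and left 130 with equal numbers on neither side. A difference of 1 gene set 145 of the 457 and 130 of the 250. Rgs5 had a UMI in 0.995% (C), 24.4% (CC) and 18.1% (CCC) of other nuclei on chow, against 0.296% (H) to 5.20% (HCH) on HFD. Its part in the pericyte-side shares was not tested. Pericyte-side nuclei made up 0.129% of nuclei (C), 0.555% (CC) and 0.728% (CCC) on chow, 0.122% (H), 0.218% (HH), 0.412% (CCH) and 0.456% (HCH) on HFD, and 0.539% (HC) and 0.275% (HHC) after WL. C lay beside H at the bottom of this order, and the difference between HFD and chow was -0.169 percentage points (exact permutation p = 0.343). Per 100 nuclei of the endothelial gate, pericyte-side nuclei numbered 1.24 (C), 6.30 (CC) and 10.8 (CCC) on chow and 2.96 (H), 5.17 (HH), 4.36 (CCH) and 6.82 (HCH) on HFD, and here the chow range enclosed the HFD range.

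**Figure D2:**
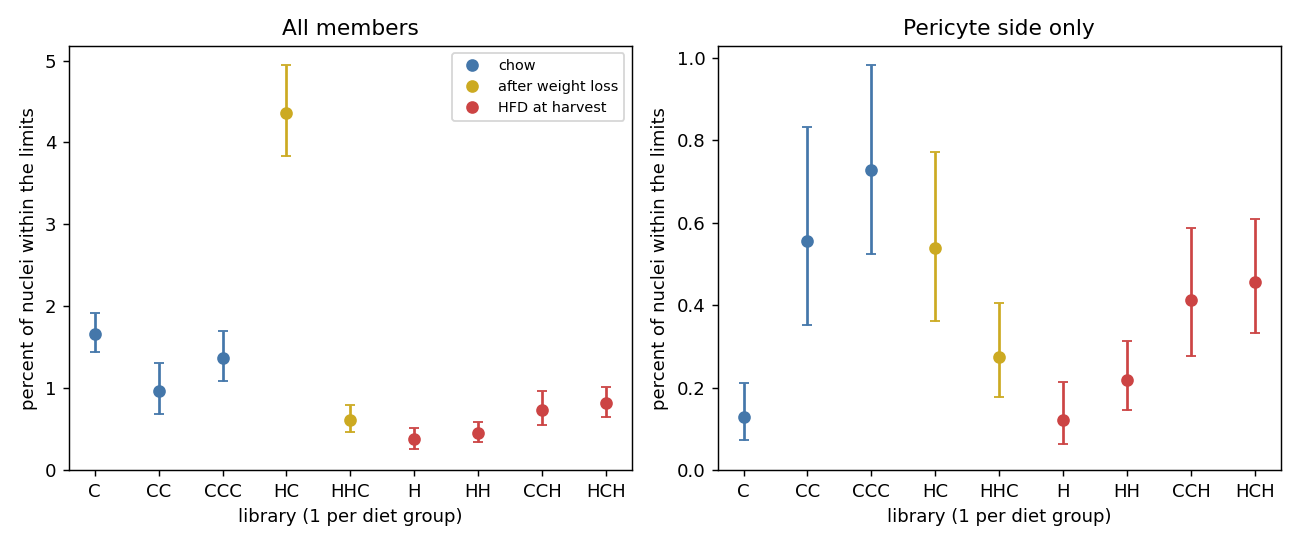
Share of nuclei within the limits, in percent, for each of the 9 libraries, with exact 95% binomial intervals; all mural nuclei at left, pericyte-side nuclei at right, coloured by diet state. HC reaches 4.36% at left, while at right C and H are the lowest libraries at 0.129% and 0.122%.

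C and HC stood apart in what their mural nuclei were. The smooth muscle side held 165 of 194 mural nuclei in C and 172 of 235 in HC, but 8 of 40 in CC and 22 of 79 in CCC, 17 of 37 in H and 21 of 61 in HH, 19 of 54 in CCH, 12 of 81 in HCH and 21 of 56 in HHC. Many of the C and HC nuclei expressed a set of genes that was rare elsewhere: Actg2, the gamma actin of visceral smooth muscle (chr6:83512905-83536265, minus strand, GRCm38), Rbfox3, an RNA splicing factor best known from neurons (chr11:118489762-118911597, minus), Lsamp, a membrane-anchored adhesion protein (chr16:39984361-42181679, plus), the ryanodine receptor Ryr3, the myosin-binding protein Mybpc1 and the heparanase relative Hpse2. These 6 genes were chosen after their values were seen. Of the smooth muscle side nuclei, 76 in C (46.1%, 38.3 to 54.0) and 119 in HC (69.2%, 61.7 to 76.0) had a UMI in 2 or more of them, against 1 of 21 in HHC, 2 of 19 in CCH and none in the other 5 libraries. Actg2 was at 810 CPM on the smooth muscle side of C and 1590 CPM in HC, 401 in CCH, 193 in HHC and at most 76.4 in the other 5. Lsamp was at 7725 CPM in C and 10834 CPM in HC against at most 53.5 CPM elsewhere. On the pericyte side, 6 of 29 nuclei in HC and none in the other 8 libraries passed the same mark.

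RNA of these genes was also more frequent in the other nuclei of the 2 libraries: 14.3% of the remaining nuclei in HC and 2.08% in C had a UMI in 2 or more of the 6 genes, against 0.0703 to 0.244% in the other 7 libraries. When smooth muscle side nuclei with 2 or more of the 6 genes were set aside, the smooth muscle side still made up 0.764% of nuclei in C and 0.984% in HC, against 0.122% (HCH) to 0.381% (CCC) in the others. For these remaining smooth muscle side nuclei HFD and chow overlapped, with CC at 0.193% and CCH at 0.233%, and differed by -0.275 percentage points (exact permutation p = 0.114). The labels do not say what tissue beyond the fat pad was taken with it, and the source of these nuclei was not tested. The fits between diet states below include C, HC or both, and are also given by side or without C and HC, while pairs of single libraries are not.

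**Figure D3:**
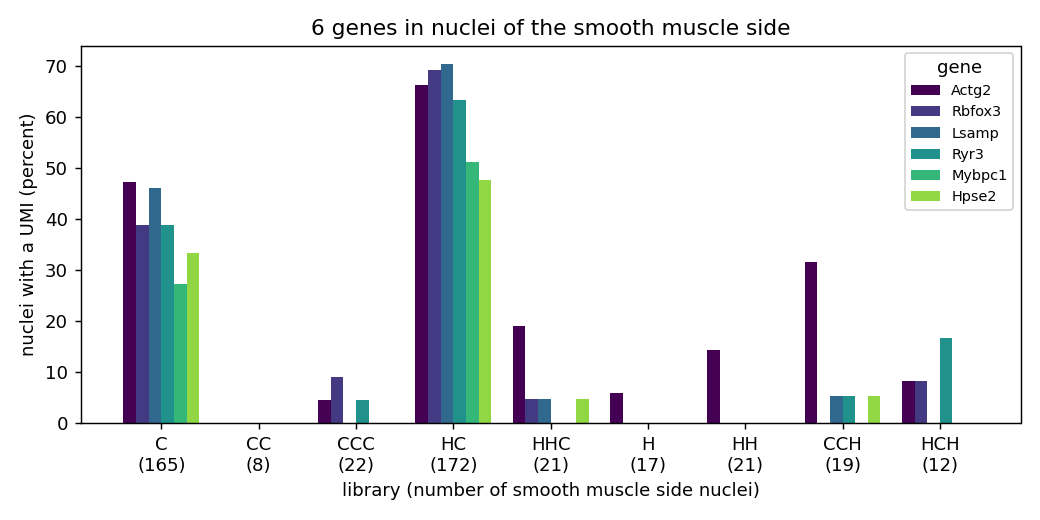
Percent of smooth muscle side nuclei with at least 1 UMI of each of 6 genes, by library, with the number of smooth muscle side nuclei in brackets. All 6 genes are frequent in C and HC, while in the other 7 libraries most bars are at or near 0 and Actg2 in CCH and HHC is the main exception.

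The smooth muscle and pericyte sides were then compared within libraries, over genes other than the 15 of the rule. The split used 6 genes in the same nuclei, so the fit describes which other genes go with that split. In edgeR's quasi-likelihood test on summed counts per side with the library as a term, 143 of 1377 genes tested (10.4%) were higher on the smooth muscle side and 129 (9.37%) were higher on the pericyte side at a Benjamini-Hochberg adjusted p under 0.05. Without C and HC the fit called 235 of 1265 genes, of which 197 were among the 272 and none had turned direction. The scaling centres the ratios, and their median over all genes tested was -0.01.

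Contractile genes were mostly higher on the smooth muscle side. Of 15 contractile genes tested, 12 were higher there and none was lower, with a median log2 ratio of 2.01. Tpm1, tropomyosin (chr9:67022590-67049406, minus), was at 2507 CPM (C), 688 (CC), 443 (CCC), 1155 (H), 2406 (HH), 1697 (CCH), 1048 (HCH), 2769 (HC) and 1041 (HHC) on the smooth muscle side, and in the same order at 288, 124, 137, 267, 298, 350, 213, 220 and 156 CPM on the pericyte side. Every smooth muscle side value of Tpm1 lay above every pericyte side value, with a fitted log2 ratio of 2.71 ± 0.235 (SE, edgeR adjusted p = 1.21e-06). Dmd, dystrophin, which anchors actin to the membrane complex (chrX:82948870-85206141, plus), was 2.89 ± 0.287 higher on the log2 scale (edgeR adjusted p = 2.28e-06) and higher in all 9 libraries. Lmod1 differed by 2.59 and Mylk, the kinase that phosphorylates the myosin light chain, by 1.64, while Cald1, the actin-binding caldesmon, differed by 1.08 and was higher on the smooth muscle side in 8 of 9 libraries. Myom1, the M-band protein myomesin, which is not on the list, was 3.49 higher (edgeR adjusted p = 5.14e-06). None of the 6 regulators of serum response factor tested passed the threshold, and Myocd was below the count needed for the test, at 128 to 1124 CPM on the smooth muscle side against 0 to 32.0 CPM on the pericyte side.

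Serum response factor binds the CArG box, a 10-base motif that reads alike on both strands and is a known feature of muscle promoters. In the 250 bases before the start of each gene (RefSeq, GRCm38.p6), it was found in 5 of 24 contractile genes with a promoter (20.8%), against 439 of 27025 symbols (1.62%). Among genes tested in the side fit it was in 27 of 1080, among those higher on the smooth muscle side in 5 of 109 (4.59%) and among those higher on the pericyte side in 1 of 93 (1.08%). The boxes are shown in capitals within their flanks, 5′ to 3′ on the strand of the gene, for the 6 called genes and for contractile genes that were not called or not tested.
Dmd: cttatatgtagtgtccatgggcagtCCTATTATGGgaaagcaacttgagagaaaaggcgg
Myom1: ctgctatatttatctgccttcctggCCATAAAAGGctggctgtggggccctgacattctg
Filip1l: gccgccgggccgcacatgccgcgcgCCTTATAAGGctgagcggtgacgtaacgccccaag
Ints6l: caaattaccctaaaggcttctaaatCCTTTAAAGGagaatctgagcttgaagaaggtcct
Filip1: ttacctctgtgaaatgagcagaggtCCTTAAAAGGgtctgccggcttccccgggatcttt
Vcl: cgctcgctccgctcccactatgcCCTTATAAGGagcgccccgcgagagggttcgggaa
Myl9: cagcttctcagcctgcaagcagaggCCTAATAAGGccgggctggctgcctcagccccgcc
Myl6: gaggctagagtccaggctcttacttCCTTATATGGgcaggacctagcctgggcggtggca
Ldb3: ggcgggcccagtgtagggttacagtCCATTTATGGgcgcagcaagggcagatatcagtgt
Robo1: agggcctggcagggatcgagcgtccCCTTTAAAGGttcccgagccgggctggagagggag
The window of Dmd is at chrX:82948747-82948806 (plus), with the box starting 98 bases before the gene's start, and that of Myom1 is at chr17:71019433-71019492 (plus), 99 bases before it. Filip1l and Filip1, paralogous filamin-binding proteins, have theirs at chr16:57549155-57549214 (plus) and chr9:79977963-79978022 (minus), and were higher on the smooth muscle side by 1.74 and 1.64. Ints6l, at chrX:56454622-56454681 (plus), was higher there by 1.10. Vinculin, Vcl, at chr14:20929148-20929205 (plus), and the light chain Myl6, at chr10:128493025-128493084 (minus), had log2 ratios of 0.65 and 0.67 that did not pass (edgeR adjusted p = 0.0659 and 0.0655). The regulatory light chain Myl9, at chr2:156775278-156775337 (plus), and the Z-disc protein Ldb3, at chr14:34588682-34588741 (minus), were not tested for low counts. Robo1, an axon guidance receptor, at chr16:72663064-72663123 (plus), was the 1 called gene with the box that was higher on the pericyte side (log2 ratio -1.75). A match in this window is a description of the sequence and shows no binding.

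Some calcium handling and excitability genes differed between the sides, and those that did not pass are not shown to be equal. Of 11 channel and transporter genes tested, 4 were higher on the smooth muscle side. Cacnb2, the beta subunit of the L-type calcium channel, was at 321 to 3460 CPM there and at 54.6 to 385 CPM on the pericyte side, a log2 ratio of 3.10 (edgeR adjusted p = 1.86e-06). Kcnab1, a potassium channel beta subunit, differed by 4.71 ± 0.546, the sodium-calcium exchanger Slc8a1 by 1.67 and the calcium pump Atp2a2 of the sarcoplasmic reticulum by 0.94, which did not pass without C and HC (edgeR adjusted p = 0.119). The calcium-activated chloride channel Ano1 ran the other way, at 718 to 1283 CPM on the pericyte side against 45.9 to 812 on the smooth muscle side (log2 ratio -1.63, edgeR adjusted p = 0.000601).

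Ppp1r12a, the targeting subunit of myosin phosphatase, was higher on the smooth muscle side by 1.51 (edgeR adjusted p = 0.000371) and the kinase Rock1, which inhibits that phosphatase, by 0.72 (edgeR adjusted p = 0.0137). The nitric oxide receptor subunits were higher on the pericyte side: Gucy1a2 had a log2 ratio of -1.01 (edgeR adjusted p = 0.0047) and its partner Gucy1b1 -1.37 (edgeR adjusted p = 0.00695), with Pde10a the third of 10 cyclic nucleotide genes to pass. For Gucy1b1 the adjusted p was 0.0698 without C and HC.

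Most pericyte markers tested were on the pericyte side. Of 6 pericyte markers tested, 4 passed as higher on the pericyte side, and the other 2 leaned to the smooth muscle side without passing. Pdgfrb, the receptor for the recruiting growth factor, was at 288 CPM (C), 412 (CC), 450 (CCC), 1146 (H), 981 (HH), 647 (CCH), 885 (HCH), 478 (HC) and 718 (HHC) on the pericyte side, against 76.4, 183, 277, 660, 497, 214, 288, 65.9 and 342 CPM in the same order on the smooth muscle side. The pericyte value of Pdgfrb was the higher in all 9 libraries although the ranges overlapped between libraries, with a log2 ratio of -1.35 ± 0.227 (edgeR adjusted p = 0.000389). Egflam, a matrix protein, had a log2 ratio of -2.11 and Steap4, a metalloreductase, -1.43. One ligand of Pdgfrb, Pdgfd, was itself higher on the smooth muscle side, at 183 to 1457 CPM against 38.2 to 320 (log2 ratio 2.19, edgeR adjusted p = 8.77e-06). Angpt1, the Tie2 ligand that mural cells send to the endothelium, was higher on the smooth muscle side by 1.21 (edgeR adjusted p = 0.0126) and in 8 of 9 libraries.

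Wide ratios were also found among genes outside the lists. Dgkb, a diacylglycerol kinase, was at 459 (CC) to 4401 (HCH) CPM on the smooth muscle side and at 0 (H and CCH) to 288 (C) CPM on the pericyte side, a log2 ratio of 4.90 ± 0.472 (edgeR adjusted p = 2.17e-06). The neurotrophin receptor Ntrk3 differed by 4.51, the actin adaptor Sorbs2 by 4.41 and alpha-T-catenin, Ctnna3, by 4.31, and all were higher in all 9 libraries. In the other direction Lin7a, a scaffold of cell junctions (chr10:107271686-107421474, plus), was at 576 CPM (C), 41.2 (CC) and 382 (CCC) on chow, 1184 (H), 735 (HH), 1166 (CCH) and 783 (HCH) on HFD, and 355 (HC) and 328 (HHC) after WL on the pericyte side and at no more than 55.0 CPM on the smooth muscle side except in HCH, where it reached 550. Its log2 ratio was -3.74 ± 0.472 (edgeR adjusted p = 2.69e-05), followed by Chn1, a Rac-regulating chimaerin, at -3.21 and N-cadherin, Cdh2, at -2.65. Olfr78 had too few UMIs for the test: it was at 1.47 to 160 CPM on the smooth muscle side and had no UMI on the pericyte side of any library.

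**Figure D4:**
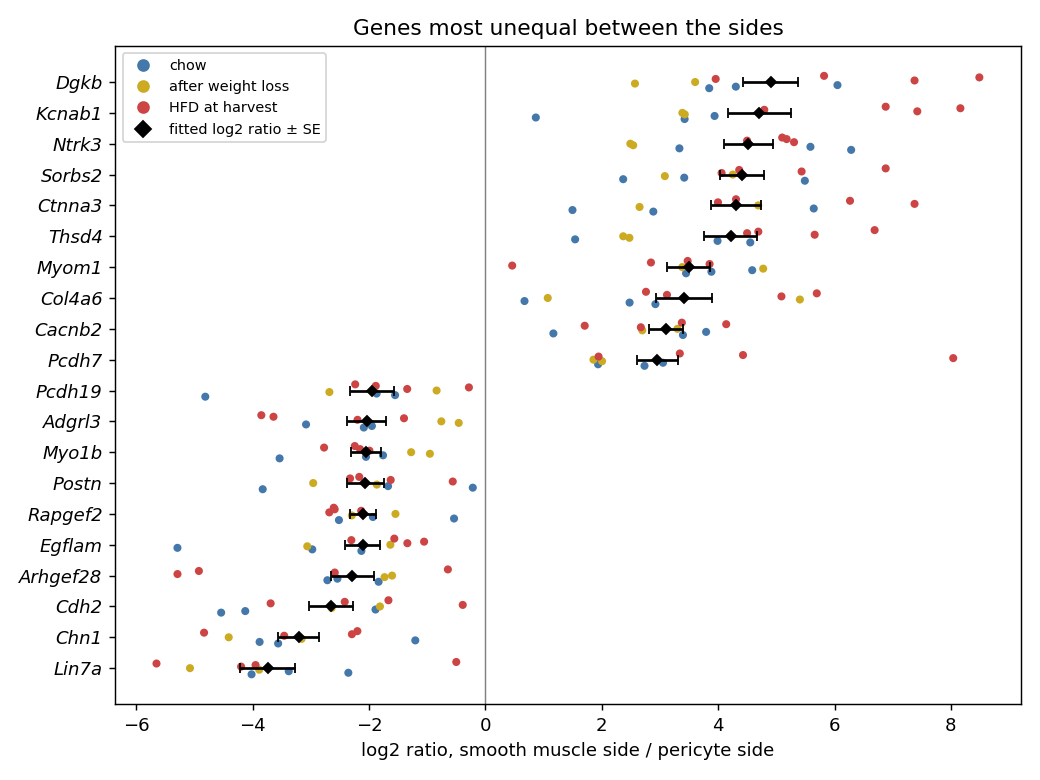
Log2 ratio of smooth muscle side to pericyte side for the 10 genes per direction with the largest fitted ratio among called genes that had the same direction in every library with 10 UMIs or more of the gene, with 1 point per library coloured by diet state and the fitted ratio ± SE as black diamonds. By that choice the points of the upper 10 genes lie to the right of 0 and those of the lower 10 to the left, and the spread of points within a gene is several log2 units where the pericyte side had few UMIs.

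Matrix genes were found on both sides. Of 9 basement membrane genes tested, 4 were higher on the smooth muscle side, with Col4a6, a type IV collagen chain of smooth muscle basement membranes, at 3.41 (edgeR adjusted p = 7.78e-05), and Col18a1, Lamc1 and Hspg2 beside it, but the median of the list was -0.13 and Hspg2 did not pass without C and HC (edgeR adjusted p = 0.156). Of 9 fibrillar and elastic matrix genes, with a median of -0.29, Fn1, fibronectin, was higher on the smooth muscle side by 1.36, whereas Postn, the matricellular periostin, was higher on the pericyte side with a log2 ratio of -2.06 (edgeR adjusted p = 0.000155), as was Sparc.

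Several lipid genes were higher on the pericyte side. Of 9 tested, 5 passed in that direction and none in the other, with a median of -0.83. Pparg, the adipogenic transcription factor, was at 2112 CPM (C), 2281 (CC), 1570 (CCC), 2407 (H), 998 (HH), 1888 (CCH), 1549 (HCH), 1090 (HC) and 765 (HHC) on the pericyte side and in the same order at 261, 1605, 415, 312, 401, 294, 367, 406 and 149 CPM on the smooth muscle side (log2 ratio -1.93 ± 0.267, edgeR adjusted p = 7.78e-05). In other nuclei Pparg ranged from 400 to 2274 CPM, and the pericyte side lay above its own library's other nuclei in all libraries but HC. The fatty acid transporter Cd36 had a log2 ratio of -1.45 (edgeR adjusted p = 0.000934) and lipoprotein lipase, Lpl, -0.83 (edgeR adjusted p = 0.00473), with Fabp4 and Scd1 the other 2. Adipocytes and endothelial cells express these genes too, and the part of free RNA in these ratios was not tested. Of 6 genes of fat cell precursors tested, Pparg, Fap and Ebf2 were higher on the pericyte side and the other 3 leaned to the smooth muscle side without passing, and without C and HC Ebf2 did not pass (edgeR adjusted p = 0.097).

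Signalling groups were mixed. None of 5 Notch pathway genes tested passed. Of 9 genes of the TGF-beta pathway, Ltbp1, which stores latent TGF-beta in the matrix, was higher on the smooth muscle side by 2.46 (edgeR adjusted p = 8.56e-05), Tgfb2 by 2.67 (edgeR adjusted p = 0.0048), and the ubiquitin ligase Smurf2 was lower there, though not without C and HC (edgeR adjusted p = 0.275). Tgfb2 was at 630 CPM on the smooth muscle side of HH, where 20 of its UMIs came from 1 nucleus, and had no UMI there in CC. T-cadherin, Cdh13, a receptor for adiponectin, was higher on the smooth muscle side by 2.35 (edgeR adjusted p = 0.00021), opposite to the N-cadherin Cdh2. Of 9 insulin and growth factor genes, Igf1r was higher on the smooth muscle side by 1.08 (edgeR adjusted p = 0.00196) in all 9 libraries and Pik3r1 was lower. Of 7 inflammation and stress genes only Fkbp5 passed, higher on the pericyte side, and of 11 lysosome and lipid-associated genes Ctsl, Mitf and Cd63 did. Counts of 1 in these groups are near the 10.4% and 9.37% called over all genes and are no result about the groups. Without C and HC, Fkbp5 (edgeR adjusted p = 0.144) and Cd63 (edgeR adjusted p = 0.102) did not pass.

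HFD and chow were compared by taking the libraries of a diet state as replicates of it, although they differ in age and duration. In edgeR's quasi-likelihood test over all mural nuclei, 0 of 4939 genes (0%) passed in either direction for HFD at harvest against chow and 0 (0%) for WL against chow. At an unadjusted p under 0.05 the counts were 728 and 224, a fit with the label prefix as a term also called 0 genes for both (805 and 599 at an unadjusted p under 0.05), and DESeq2's Wald test called 49 genes higher (0.992%) and 60 lower (1.21%) on HFD and none after WL. Without C and HC the edgeR test on HFD called 48 of 5294 genes higher (0.907%) and 126 lower (2.38%), in a comparison in which the label prefix and the diet cannot be told apart. On the pericyte side alone it called 7 of 2652 genes higher (0.264%) and 68 lower (2.56%) on HFD and 0 after WL (0%), and on the smooth muscle side alone 0 of 1993 (0%). The pericyte side held 15 nuclei in C and 12 in H, and C is the only chow library with the label prefix of the HFD libraries. The prefix was not used as a term by side, so the parts of diet and prefix in these calls were not tested.

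The 7 genes that rose on HFD on the pericyte side were Igf2r, Raph1, Frmd4a, Plin2, Pdlim1, Rab8b and Lyz2. Pericyte-side sums ran from 26175 (H) to 117506 (HCH) UMIs, so the lowest levels given for these genes rest on few UMIs. Igf2r, the receptor that carries lysosomal enzymes and clears insulin-like growth factor 2 (chr17:12682406-12769664, minus), was at 96.0 CPM (C), 41.2 (CC) and 177 (CCC) on chow, and at 611 (H), 911 (HH), 456 (CCH) and 689 (HCH) on HFD. HC at 220 CPM and HHC at 421 CPM lay between the chow and HFD values of Igf2r. Its log2 ratio was 2.52 ± 0.460 (edgeR adjusted p = 0.00577). In other nuclei it was at 37.3 to 74.1 CPM on chow and 74.7 to 447 CPM on HFD, below the pericyte side of each HFD library. Frmd4a, a scaffold of cell polarity, rose by 1.68 ± 0.430 (edgeR adjusted p = 0.0441), from 82.4 to 396 CPM on chow to 621 to 1146 CPM on HFD, while other nuclei held at most 172 CPM in any library. Raph1, an actin regulator that binds Ras, was at 110 to 224 CPM on chow and 490 to 919 CPM on HFD (log2 ratio 1.90 ± 0.406, edgeR adjusted p = 0.0185). Pdlim1, a cytoskeletal adaptor, rose by 2.28 and Rab8b, a vesicle traffic GTPase, by 2.12. The lipid droplet coat Plin2 rose by 2.15 from 32.0 to 81.9 CPM to 148 to 525 CPM. Other nuclei held more Plin2 than the pericyte side in H, at 851 CPM. The macrophage lysozyme Lyz2 rose by 4.09 and followed the level of other nuclei in each library. Over all mural nuclei without C and HC, 5 of the 7 genes also passed, namely Igf2r (edgeR adjusted p = 0.0301), Raph1 (0.0231), Frmd4a (0.0475), Pdlim1 (0.0193) and Rab8b (0.0427), and Plin2 and Lyz2 did not. That fit holds the same pericyte-side nuclei of the libraries kept, so it is no separate evidence. The label prefix and the diet cannot be told apart in it.

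Of the 68 genes that fell, 7 were on the list of adipocyte genes, which does not hold every such gene. Acacb and Cyp2e1, which the authors relate to adipocyte function, are not on it and were among the 68, with log2 ratios of -3.58 and -3.50. Lipe, hormone-sensitive lipase, was at 320, 577 and 437 CPM on the pericyte side of C, CC and CCC and at 38.2, 87.6, 53.0 and 42.6 CPM in H, HH, CCH and HCH. These HFD levels rest on few UMIs. The log2 ratio of Lipe was -3.12 (edgeR adjusted p = 0.00444). Other nuclei held 430, 564 and 510 CPM of Lipe on chow and 52.4, 92.6, 182 and 83.8 CPM on HFD, so that the whole tissue moved in the same direction. Cidec, Adrb3, Plin1, Ghr, Acvr1c and Acsl1 fell as well, which makes 7 of the 11 adipocyte genes tested, with a list median of -2.32 against 0.03 over all genes tested. The summed adipocyte level was 7590 to 10242 CPM on the pericyte side of chow libraries and 1471 to 2076 on HFD, against 9961 to 19168 and 1630 to 5542 CPM in other nuclei. The part of free adipocyte RNA in the fall was not tested. Among the 68 genes were also Tns1, the integrin-linked tensin, at -1.31, and the phosphodiesterase Pde3b at -2.67. Gm42418, a transcript that overlaps ribosomal RNA sequence, was among them at -4.39 (edgeR adjusted p = 0.0157), with Gm26917 and Lars2, at -2.53 and -2.51. Its level followed the label prefix: on the pericyte side Gm42418 was at 4801 CPM (C), 93070 (CC) and 32051 (CCC) on chow, 2049 to 2778 on HFD, and 96619 (HC) and 20011 (HHC) after WL, and in other nuclei it was 14259 CPM or more in the libraries with S019 and at most 3108 CPM in those with S075.

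**Figure D5:**
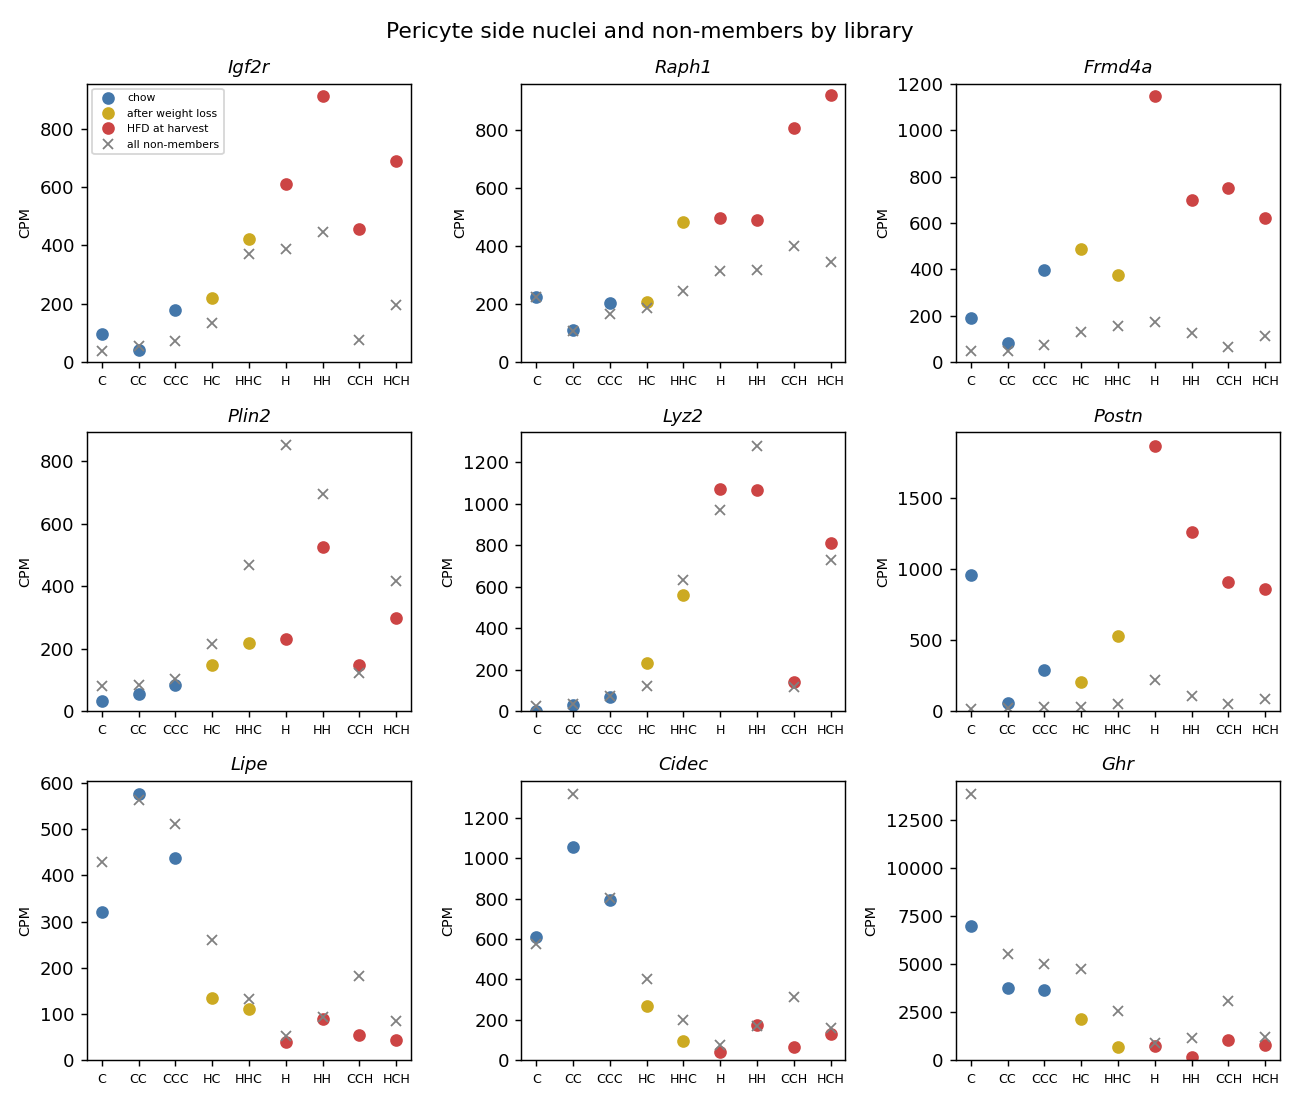
CPM of 9 genes in the pericyte-side nuclei of each library, coloured by diet state, with all other nuclei of the same library as grey crosses. For Igf2r, Raph1 and Frmd4a the 4 HFD points lie above all chow points and above their crosses, for Plin2 and Lyz2 points and crosses move together across libraries, and for Lipe, Cidec and Ghr both are lower on HFD than on chow; Postn, which was not called, is above its crosses in all 9 libraries.

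Most fibrillar and elastic matrix genes tested were higher in mural nuclei on HFD at harvest, but none passed the threshold in edgeR's test over all mural nuclei or by side. Without C and HC 4 of 24 did (Fn1, Postn, Col3a1 and Col5a2), against 0.907% of all genes called higher. DESeq2's Wald test over all mural nuclei called 5 of 23 higher (Postn, Col3a1, Col5a2, Mfap5 and Col6a3), against 0.992% of all genes. Over all mural nuclei 21 of 23 fibrillar and elastic matrix genes had a positive log2 ratio with a median of 1.43, and on the pericyte side 14 of 14 had one with a median of 1.28, against medians of -0.02 and 0.03 over all genes tested. Of all genes tested, 48.5% and 51.8% were positive. The list holds 30 genes, and those with too few UMIs were not tested. A gene can pass that filter through the HFD libraries alone, so these counts are a description only. Postn in mural nuclei was at 132 CPM (C), 58.8 (CC) and 194 (CCC) on chow, 1527 (H), 857 (HH), 631 (CCH) and 800 (HCH) on HFD, and 70.0 (HC) and 268 (HHC) after WL, with a log2 ratio of 2.79 (edgeR adjusted p = 0.137). All 4 HFD values of Postn lay above the chow values, and other nuclei held at most 218 CPM. DESeq2 called Postn (Wald test, adjusted p = 8.58e-05) and so did edgeR without C and HC (adjusted p = 0.0115). On the pericyte side alone C held 960 CPM, above CCH at 912 and HCH at 860, and the log2 ratio was 1.60 (edgeR adjusted p = 0.212). Col3a1, the chain of type III collagen, was at 197 to 358 CPM on chow, 832 to 2174 on HFD, 269 in HC and 752 in HHC (log2 ratio 2.30, edgeR adjusted p = 0.137). The summed level of the list was 2521 to 5196 CPM in chow and 6336 to 11888 in HFD libraries, and in other nuclei it was 2201 to 3072 and 4232 to 6203 CPM. Genes of fat cell precursors had a median of 0.58 with 10 of 12 positive. Their sum in mural nuclei exceeded that in other nuclei in H (5228 against 3366 CPM), HH (4494 against 4203) and HCH (5131 against 4657). It did not in CCH (3628 against 4665) or on chow. Pdgfra had a UMI in 18.9% (H), 11.5% (HH), 1.85% (CCH) and 4.94% (HCH) of mural nuclei, against 2.06% (C) to 5% (CC) on chow. The part of precursor RNA in the matrix ratios was not tested.

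Among other genes of the pericyte side, Gucy1a2 and Adgrl3 were higher in all 4 HFD libraries than in the 3 chow libraries without passing over all mural nuclei. Both were taken up here for this order after their values were seen. How many of all genes show the same order was not counted, so the order alone is no result about them. The list of cyclic nucleotide genes to which Gucy1a2 belongs had a median of -0.03 with 10 of 21 positive. Gucy1a2 was at 338 CPM (C), 429 (CC) and 373 (CCC) on chow, 1039 (H), 965 (HH), 1594 (CCH) and 1319 (HCH) on HFD and 192 (HC) and 595 (HHC) after WL, against at most 92.7 CPM in other nuclei (log2 ratio 1.60, edgeR adjusted p = 0.162). On the pericyte side its log2 ratio was 1.15 (edgeR adjusted p = 0.0651). DESeq2's Wald test called Gucy1a2 (adjusted p = 0.0047), and edgeR did so without C and HC (adjusted p = 0.0252). The adhesion G-protein-coupled receptor Adgrl3 was at 367, 185 and 500 CPM on chow and at 954, 1096, 1583 and 1610 CPM in H, HH, CCH and HCH, while HC held 326 and HHC 412 CPM (log2 ratio 1.82, edgeR adjusted p = 0.137). DESeq2's Wald test called Adgrl3 (adjusted p = 0.000334) and so did edgeR without C and HC (adjusted p = 0.0251), and on the pericyte side alone the ratio was 1.37 (edgeR adjusted p = 0.114). These genes are higher on the pericyte side, and HFD libraries had relatively fewer smooth muscle side nuclei than C, whose part in these ratios was not tested beyond the fits by side and without C and HC.

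Contractile genes had a median log2 ratio of -0.63 on HFD, with 4 of 27 positive and none called. C, with 165 of its 194 mural nuclei on the smooth muscle side, is 1 of the 3 chow libraries, and within the smooth muscle side the median was -0.27 with no gene called. The direction of the list turned without C and HC, to a median of 0.93 with 19 of 25 positive, Cap2, Cald1 and Dmd called higher and Tns1 lower, and on the pericyte side it was 0.32 with Tns1 called lower. Smooth muscle markers went from -0.77 to 0.92 and channel genes from -0.23 to 0.70 in the same way, so no direction on HFD is given for these groups. Genes of the list of lysosome and lipid-associated genes, which also holds macrophage genes such as Lgals3 and shares Gpnmb, Mmp12 and Trem2 with the macrophage list, had a median of 2.04 with 19 of 21 positive, and macrophage genes of 2.46, against 1.52 and 2.37 without C and HC and 1.80 and 2.43 on the pericyte side. The summed level of the lysosome and lipid-associated list was 1135 to 2643 CPM in mural nuclei on chow, 8325 in H, 8964 in HH, 1311 in CCH and 6649 in HCH. In other nuclei it was 1902 to 2389 CPM on chow and 2433 (CCH) to 17567 (H) CPM on HFD. Macrophage markers in mural nuclei summed to 259 to 1227 CPM on chow and 473 to 3946 on HFD, against 1637 to 2244 and 4268 to 10366 in other nuclei. CCH, with 4 weeks of HFD, stayed within the chow range of that level.

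After WL no gene passed. The lysosome and lipid-associated genes had a positive log2 ratio against chow in 21 of 21 tested, with a median of 1.88, and the summed level was 3636 CPM in HC and 11661 in HHC, above the 3 chow libraries. Other nuclei of HC and HHC held more of this list, at 7176 and 18600 CPM. Adipocyte genes had a median of -1.52, fibrillar matrix 0.26 and contractile genes 0.62. On the pericyte side alone the medians were 2.23 for lysosome and lipid-associated, -1.64 for adipocyte, 0.34 for fibrillar matrix and 0.23 for contractile genes. The macrophage level was 1336 to 4611 CPM in mural nuclei of the WL libraries and 3840 to 9415 in their other nuclei.

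Single libraries were also set side by side, with no replicate and hence no test, counting genes with 20 UMIs or more whose 95% interval for the ratio, which covers counting error only, lay wholly past 2-fold. In H against C, 210 of 5674 genes were higher (3.7%) and 200 lower (3.52%). The lowest in H were genes of the smooth muscle nuclei seen in C and HC: Lsamp had no UMI in H and 3844 in C, and Rbfox3 had 1 against 761. Among the highest was Col5a3, a type V collagen chain, with 33 UMIs in 23 nuclei of H against 10 in C (log2 ratio 4.31, interval 3.26 to 5.50). Col5a3 was 1.06 higher in other nuclei of H and 2.13 on the pericyte side.

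In HH against CC, 157 of 3100 genes were higher (5.06%) and 125 lower (4.03%). CC is younger than HH and has the other label prefix, so age, prefix and diet cannot be told apart in this pair. Among the lowest was Gm42418, at 1845 CPM in HH and 92001 in CC, with other nuclei at 1641 and 68419 CPM. Against C, which is also younger but shares the label prefix of HH, 365 of 6024 were higher (6.06%) and 185 lower (3.07%). Ctsk, cathepsin K, a collagen-degrading protease, had 52 UMIs in 23 nuclei of HH and 1 in C, but other nuclei differed likewise, at 351 against 5.53 CPM. Of the 33 UMIs behind a higher Tgfb2 in HH than in CC, 20 came from 1 nucleus.

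After WL, HC against CC had 276 of 7189 genes higher (3.84%) and 226 lower (3.14%). The 5 lowest included Dcdc2a, with 1 UMI against 62, and Pkhd1, with 1 against 34, and other nuclei differed likewise, by -9.94 and -5.19. The 5 highest included Lsamp with 7561 UMIs against none and Rbfox3 with 3668 against none. Pgm5, a phosphoglucomutase relative found at muscle adhesion sites, was at 1961 against 8.40 CPM. HHC against CCC had the fewest in total, 64 of 3633 higher (1.76%) and 52 lower (1.43%). The 5 lowest were Samd12, with 2 UMIs against 20, and Gpihbp1, Klf2, Aqp1 and Emcn, which are known from endothelium. Gpihbp1, which carries lipoprotein lipase across capillaries, was at 26.2 against 284 CPM and the water channel Aqp1 at 58.9 against 537 CPM, and CCC was the library with the highest endothelial level in its mural nuclei. Of the higher ones, Ctsk had 56 UMIs in 33 nuclei against 1, a log2 ratio of 5.62, while other nuclei differed by 5.01. Col4a6 was higher by 4.02 (interval 2.06 to 7.12), from 37 UMIs in 14 nuclei against 2, and other nuclei differed by -0.06.

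HCH against CCH asks whether the same 4 weeks of HFD left mural cells different in mice that had been obese before. Here 139 of 4206 genes were higher in HCH (3.3%) and 44 lower (1.05%). Ccl11, eotaxin, the chemokine that draws eosinophils, had 27 UMIs in 21 nuclei of HCH and 1 in CCH, a log2 ratio of 4.59 (interval 1.99 to 9.95), and was 1.70 higher in other nuclei. Ifitm3, an interferon-induced membrane protein, was 5.16 higher with 40 UMIs in 27 nuclei against 1, and Ftl1, the ferritin light chain, 4.89 higher, with other nuclei higher by 2.26 and 2.84. The ribosomal protein genes Rpl18 and Rps21 were also among the 5 highest, by 4.74 and 4.38, and higher in other nuclei by 1.89 and 1.58. Actg2 had a log2 ratio of -4.07, from 2 UMIs against 30. Prlr and Akr1cl each owed most of their UMIs in CCH to 1 nucleus, 51 of 60 and 55 of 57.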

How the data were processed

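Nuclei from frozen epididymal fat were profiled with 10x 3′ chemistry, 1 library per diet group from 5 pooled mice. The authors mapped reads, introns included, to mm10 with Cell Ranger 6.1.2 and deposited gene by barcode matrices of UMI counts for 9 libraries, 91687 barcodes and 408905640 UMIs in all, which were used as deposited. No correction for ambient RNA was applied here and no doublets were removed; 65 of the 837 nuclei had doublet scores (Scrublet in scanpy 1.11.5) among the top scores of their library, and leaving them out is one of the alternatives.

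Counts of the chosen nuclei were summed per library, or per library and side. CPM divides by summed UMIs without mitochondrial genes and Malat1. edgeR 4.0.16 (R 4.3.3) fitted these sums by quasi-likelihood with TMM factors and filterByExpr at a minimum count of 10, and Benjamini-Hochberg values were taken over all genes tested, the 15 rule genes left out. DESeq2 1.42.0 served as an alternative. In the diet fits a gene can pass the filter through the libraries of 1 diet state, so counts of positive genes in a list are a description only. Diet states were compared over libraries (chow 3, HFD 4, WL 2), which are not replicates of 1 treatment, and p-values measure the spread between these libraries. Sides were compared with the library as a term. Pairs of libraries have no test. Shares have exact Clopper-Pearson 95% intervals, pair ratios exact conditional binomial ones, and both cover counting error only. Data were also drawn with known fold changes, from a common profile for all libraries with a fixed spread, and only genes with higher counts were changed. In these draws the HFD fit recovered 4.52% of 2-fold and 90% of 4-fold changes, the WL fit 0% and 72.5%, and the side fit 74.1% and 100%. The draws lack the differences in kinds of nuclei that C and HC bring, so they do not give the recovery in the real data.

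The nuclei, gene lists and tests were chosen with earlier results of these data known. Genes are named by a rule: the rule genes, up to 4 genes per list (called genes first, then those with most UMIs), the 10 per direction with the largest called ratio in a fit, 5 per direction in a library pair, and the 15 with the highest ratio of mural to other nuclei. Genes from the pericyte-side fit, the 6 genes of the C and HC nuclei, and Robo1, Filip1 and Filip1l were named after their values were seen. Gucy1a2 and Adgrl3 were set out by diet after their values were seen. Promoter sequences are from RefSeq on GRCm38.p6. What the label prefixes S019 and S075 stand for is not given in the sources used here. Some items are not reported here.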

Additional observations from a re-analysis of the deposited data

Results flagged for a closer look

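In 46 measures over the 4 libraries on HFD at harvest, 1 library lay far from the other 3 in 2 cases. Chance alone gives about 1 in 20, so that 2 of 46 is no more than chance would give. Notch3 was at 1470 CPM in the mural nuclei of HCH and at 1191 to 1212 in H, HH and CCH. Gucy1a1 was at 664 CPM in HCH and at 486 to 511 in the other 3. Both genes were used to choose the nuclei, and nothing is drawn from their values.

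The share of mural nuclei moved in opposite directions after WL: HC lay 3.40 percentage points above CC, and HHC had a difference of -0.754 percentage points from CCC. This difference was not tested, as each group is 1 library. In HC, 14.3% of nuclei outside the mural set had a UMI in 2 or more of Actg2, Rbfox3, Lsamp, Ryr3, Mybpc1 and Hpse2, above the 2.08% of C and the at most 0.244% of the other libraries.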

How the results depend on the processing

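Depth is one limit: sums ran from 94298 to 871090 UMIs per library, and the side sums were smaller still. Each group has 1 library numbered 1, so that replicate numbers pair no libraries. H and C, HC and CC, HHC and CCC, and HCH and CCH share an age, but age was not used as a block and no paired analysis was run. With the label prefix as a term both diet comparisons over all mural nuclei called 0 genes, and this term was not used by side.

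For HFD at harvest against chow the count of 0 genes became 109 with DESeq2's Wald test, 352 with no filter, 174 without C and HC and 75 on the pericyte side only, and 0 to 95 when each library was left out in turn, with 95 without C and 1 without CCH. For WL against chow the count of 0 became 60 with no filter. The side comparison called 272 genes and 638 with no filter, 128 when the sides had to differ by 2 genes, 178 with at least 4 mural genes, 70 with no gene of other cells and 197 to 302 without each library in turn. Fewer genes were tested under the last 3 choices of nuclei (441, 502 and 221). What caused the shifts in count was not tested. In the side comparison no gene called in both settings changed direction. The diet comparisons called no gene to begin with, and without C and HC the medians on HFD turned for contractile genes (-0.63 to 0.93), smooth muscle markers (-0.77 to 0.92) and channel genes (-0.23 to 0.70).

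The share difference between HFD and chow kept its sign in every setting run, but the groups overlapped with at least 4 mural genes (exact permutation p = 0.343), with no gene of other cells (exact permutation p = 0.686), for smooth muscle side nuclei with under 2 of the 6 genes of C and HC (exact permutation p = 0.114) and for mural nuclei per 100 endothelial nuclei (exact permutation p = 0.114). The settings without C and HC, by side, by the 6 genes and for pericyte-side nuclei per endothelial nucleus were chosen after seeing the data.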
